A study of Mus musculus with 12 samples.

Results

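Regions of open chromatin that were called in some but not most libraries of an ATAC-seq experiment in mouse embryonic stem cells are described here. The peak lists of 12 libraries were merged on chromosomes 1 to 19 wherever peaks overlapped by at least 1 bp, which gave 95132 regions. A region was kept when a peak in 4 to 8 of the 12 libraries overlapped it, and 18861 regions (19.8%) met this rule. They are called intermediate regions below, and "listed" means that a library's peak list has a peak in the region. The choice used only how many libraries list a region, not which ones. It did not fix which clones or genotypes list a region, but it limits over how few clones the listing can fall. Fold enrichment and q-value decide whether a peak is listed at all, and they are therefore given as descriptions without a test.

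The cells are of a BL6xCAST line and carry either synHPRT1 or synHPRT1R integrated on chromosome X. The study asked about the accessibility of these synthetic sequences, set against the remaining genome of the cells. Each genotype was represented by 2 clones with 3 replicates each, so that 6 libraries stand for each construct. All 4 clones were kept on gelatin-coated plates in a 2i-based medium with LIF, and all carry a construct, so no library comes from the unmodified line. With 2 clones per genotype, a difference between genotypes may be one between clones, and an exact test of clone means, 2 against 2, cannot pass the 0.05 threshold. The labels do not say whether replicates came from separate cultures, and p-values then reflect only how far these libraries scatter, which can be technical scatter.

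In ATAC-seq, Tn5 transposase inserts sequencing adapters where DNA is not covered by nucleosomes, and sites of frequent insertion are called as peaks. In embryonic stem cells, CpG-rich promoters of active genes are open throughout the population, whereas enhancers and the promoters of lineage genes are often open weakly or in some cells only. Lineage genes such as Sox1 or T are held in a poised state by Polycomb proteins until differentiation.

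Autosomal lists held from 37111 to 61717 peaks, with a median of 46071, and read depth is not in the lists. Of 8 embryonic stem cell marker genes, at least 10 libraries listed a peak no farther than 1 kb from a gene end for 7, and 0 lacked one in every library. Of 10 genes taken as silent in these cells, 9 had no such peak in any library, and 0 reached 10 libraries. Among 9 markers of fibroblasts and feeder cells, 2 reached 10 libraries and 2 had none, and the part of such cells in the results was not tested.

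Promoters under intermediate regions ranged from CpG-rich to CpG-poor. The RefSeq promoter windows of GRCm38.p6 run from 250 bases before to 50 bases after an annotated gene start. Of 20062 such windows on the autosomes, 956 (4.77%) had an intermediate region as the region with the largest overlap. The 250 bases before the start are printed 5′ to 3′ for 9 genes of the lists described below, as examples. CG dinucleotides, the targets of DNA methylation in mammals, stand in capitals. The examples do not span the whole range, since a window of Dnmt3a, not printed here, had 38 in its 250 bases.

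Sox1 (chr8:12395269-12395518, forward strand): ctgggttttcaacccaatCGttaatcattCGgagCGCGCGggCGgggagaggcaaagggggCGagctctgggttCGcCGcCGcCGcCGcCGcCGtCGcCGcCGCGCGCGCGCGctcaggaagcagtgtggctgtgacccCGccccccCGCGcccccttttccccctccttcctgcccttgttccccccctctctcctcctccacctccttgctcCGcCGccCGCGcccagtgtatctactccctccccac
Sycp1 (chr3:102936101-102936350, reverse strand): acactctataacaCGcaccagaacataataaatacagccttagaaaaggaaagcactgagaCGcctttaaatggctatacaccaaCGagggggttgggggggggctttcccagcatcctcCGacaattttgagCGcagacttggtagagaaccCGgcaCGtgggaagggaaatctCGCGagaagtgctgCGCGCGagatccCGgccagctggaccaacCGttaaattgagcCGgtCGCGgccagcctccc
Asz1 (chr6:18109062-18109311, reverse strand): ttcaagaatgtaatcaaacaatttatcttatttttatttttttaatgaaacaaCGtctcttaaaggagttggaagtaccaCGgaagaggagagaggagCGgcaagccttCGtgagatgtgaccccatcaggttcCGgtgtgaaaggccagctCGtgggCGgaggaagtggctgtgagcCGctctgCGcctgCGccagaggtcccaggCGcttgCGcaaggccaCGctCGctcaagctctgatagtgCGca
T (chr17:8434173-8434422, forward strand): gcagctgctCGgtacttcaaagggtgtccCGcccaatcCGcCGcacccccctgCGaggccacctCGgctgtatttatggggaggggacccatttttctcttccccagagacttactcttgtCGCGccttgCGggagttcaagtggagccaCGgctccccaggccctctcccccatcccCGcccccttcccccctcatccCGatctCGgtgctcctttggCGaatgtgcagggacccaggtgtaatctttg
Hoxb4 (chr11:96318017-96318266, forward strand): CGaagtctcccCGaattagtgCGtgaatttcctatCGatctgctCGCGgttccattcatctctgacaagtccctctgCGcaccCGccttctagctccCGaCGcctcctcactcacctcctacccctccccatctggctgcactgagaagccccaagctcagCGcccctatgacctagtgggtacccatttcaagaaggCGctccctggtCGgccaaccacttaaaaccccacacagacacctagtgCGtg
Krt18 (chr15:102027966-102028215, forward strand): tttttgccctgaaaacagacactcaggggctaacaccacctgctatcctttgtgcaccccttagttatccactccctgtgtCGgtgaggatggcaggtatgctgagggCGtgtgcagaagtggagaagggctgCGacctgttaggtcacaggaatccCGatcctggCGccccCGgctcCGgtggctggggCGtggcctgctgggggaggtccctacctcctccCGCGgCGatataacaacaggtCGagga
Bmp4 (chr14:46390670-46390919, reverse strand): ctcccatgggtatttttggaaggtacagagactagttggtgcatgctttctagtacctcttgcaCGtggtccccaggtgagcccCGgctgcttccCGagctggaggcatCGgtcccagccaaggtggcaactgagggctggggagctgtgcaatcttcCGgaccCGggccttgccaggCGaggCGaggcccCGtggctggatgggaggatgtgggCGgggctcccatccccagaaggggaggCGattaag
Col1a2 (chr6:4505368-4505617, forward strand): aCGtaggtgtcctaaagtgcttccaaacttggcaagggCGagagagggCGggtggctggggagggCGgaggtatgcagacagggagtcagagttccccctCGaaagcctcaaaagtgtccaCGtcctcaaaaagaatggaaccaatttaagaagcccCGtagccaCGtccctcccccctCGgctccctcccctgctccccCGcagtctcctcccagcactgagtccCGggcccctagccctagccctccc
Msgn1 (chr12:11208949-11209198, reverse strand): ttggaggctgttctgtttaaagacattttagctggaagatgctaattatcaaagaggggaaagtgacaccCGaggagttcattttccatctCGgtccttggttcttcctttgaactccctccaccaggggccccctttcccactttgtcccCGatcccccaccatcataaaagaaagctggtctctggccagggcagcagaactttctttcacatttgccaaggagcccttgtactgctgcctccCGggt

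Sox1, a transcription factor gene of the neural lineage, had 29 CG dinucleotides in these 250 bases and Msgn1, a mesoderm transcription factor gene, had 4. The germline genes Sycp1 and Asz1 had 17 and 15. T, which encodes Brachyury, and Hoxb4 had 14 each, the keratin gene Krt18 had 12, and the growth factor gene Bmp4 and the collagen gene Col1a2 had 11 each. Over the whole 300-base windows, those under intermediate regions had a median of 16 CG dinucleotides (quartiles 8 and 25), and their median G and C content was 59.7%. Windows under a region listed in all 12 libraries had a median of 23, those with no peak in any library 3, and all windows 14. Intermediate promoters thus lay between the other 2 classes in CpG content.

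Short sequence motifs were counted on both strands of the same windows. The Sp/KLF box CCCCGCC was found in 39.4% of windows under intermediate regions, 47.7% of those under 12-library regions, 7.68% of those without a peak and 31.6% of all windows. The TATA box TATAAA was found in 6.90% of the intermediate windows, 5.69% of the 12-library ones, 24.1% of those without a peak and 12.7% of all. The AP-1 site TGANTCA stood in 6.80% of intermediate windows against 7.06% of all, and the Esrrb element TCAAGGTCA in 0.418% against 0.339%. Of the promoters printed above, Sox1, T and Bmp4 hold the Sp/KLF box within their 300-base window, and Sox1 also holds the octamer ATGCAAAT, found in 1.67% of all windows. A match is only a stretch of letters and says nothing of a factor's binding.

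The number of regions was highest for 1 library and for all 12 libraries. Of the 95132 regions, 25907 were listed in 1 library and 22472 in all 12, while 4908, 4041, 3463, 3188 and 3261 were listed in 4, 5, 6, 7 and 8 libraries. The lowest number, 3177, was at 9 libraries, just above the set, and 3626 were listed in 10. Per chromosome, intermediate regions made up between 18.9% and 21.1% of all regions, with a median of 19.9%.

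**Figure D1:**
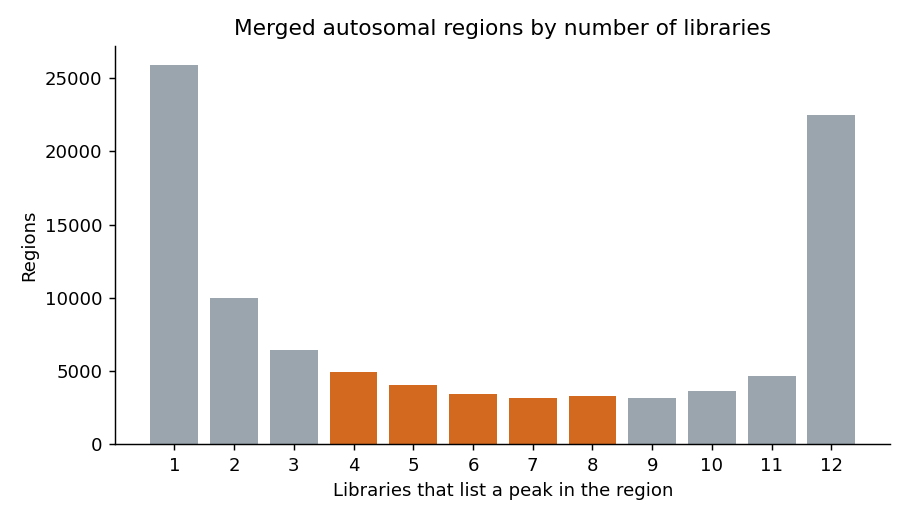
Number of merged autosomal regions (vertical axis) by the number of libraries that list a peak in them (horizontal axis, 1 to 12). Orange bars mark the 18861 regions listed in 4 to 8 libraries, and the tall bars at both ends are the 25907 regions of 1 library and the 22472 of all 12.

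A smaller share of the intermediate regions than of all regions lay at gene ends, while the share beyond 50 kb was close to that of all regions. A gene end here is the outermost annotated start or end of a protein-coding gene of GRCm38.p6, and strand, exons and introns were not determined. Of the 18861 regions, 2040 (10.8%) lay within 1 kb of a gene end, 8099 (42.9%) inside a gene and farther from its ends, 5502 (29.2%) outside genes at 1 to 50 kb, and 3220 (17.1%) beyond 50 kb. Over all 95132 regions these shares were 17.9%, 39.6%, 25.6% and 17.0%. Regions of all 12 libraries lay within 1 kb of a gene end in 42.1% and inside a gene in 25.5%, and regions of 1 library in 7.49% and 46.8%. Place moved with the number of libraries also within the set, from 8.52% at a gene end among regions of 4 libraries to 13.8% among those of 8. Of the intermediate regions, 857 (4.54%) had the largest overlap with a promoter window, against 7793 (34.7%) of the 12-library regions. Both shares count regions of chromosome 18, which has no promoter windows, and 18209 of the intermediate regions lay on chromosomes that have them. The median distance to a gene end was 17233 bp for intermediate regions and 4502 bp for 12-library regions.

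Their peaks were weaker than those of regions listed in all 12 libraries, which the rule in part fixed. The fold at the summit, which the authors deposited in column 7 as enrichment over background, had a median of 4.03 over the 109889 peaks in intermediate regions, with quartiles of 3.56 and 4.65. It was 3.37 for regions of 1 library and 6.60 for those of all 12. The −log10 q-value of column 9 had a median of 4.45 (quartiles 3.38 and 6.44), against 2.95 and 13.4, and the lists start at 1.3. A −log10 q-value under 5 was found in 58.2% of the peaks of intermediate regions, in 89.2% of those of 1 library and in 8.70% of those of all 12. Within its own list, a peak of an intermediate region stood at a median percentile of 26.9 by strength.

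Merged intermediate regions had a median width of 554 bp (quartiles 459 and 692), against 240 bp for 1 library and 1086 bp for 12, and merging more peaks can only widen a region. The summits of different libraries lay within a median range of 214 bp of each other, with a median absolute deviation of 37 bp. In 80.9% of the regions, at least 1 base was shared by every peak. Of the intermediate regions, 15.9% lay within 5 kb of a region listed in all 12 libraries, close to the 14.8% of all regions.

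**Figure D2:**
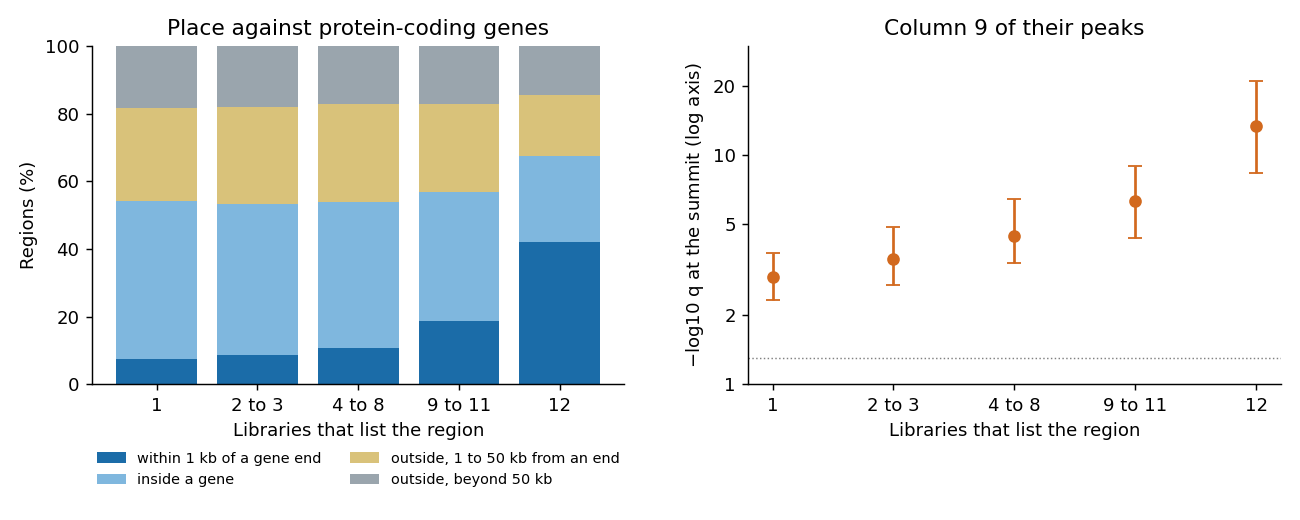
Left, share of regions in each place relative to protein-coding genes (percent of regions) by the number of libraries that list them. Right, median and quartiles (point and bars) of the −log10 q-value of their peaks on a log axis, with a dotted line at 1.3, the lowest value listed; regions of 4 to 8 libraries have 10.8% at gene ends and a median of 4.45, between the classes of fewer and of more libraries.

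The edges of the set were not sharp. Regions of 3 libraries, just outside, had a median fold of 3.69, a −log10 q-value of 3.72, a width of 438 bp and 8.46% at gene ends. Those of 4 libraries, just inside, had 3.81, 4.09, 488 bp and 8.52%. At the upper edge, regions of 8 libraries had 4.30, 5.07, 639 bp and 13.8%, and those of 9 had 4.38, 5.50, 689 bp and 15.0%.

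How many intermediate regions a library listed followed the length of its list. Replicates 1 to 3 of synHPRT1 clone 1 listed 8174, 7856 and 14363 of them, and those of clone 2 14689, 9013 and 4407. For synHPRT1R the numbers were 12500, 10593 and 5740 for clone 1, against 7547, 7279 and 6858 for clone 2. The highest share, 77.9% in synHPRT1 clone 2 replicate 1, and the lowest, 23.4% in replicate 3, thus came from the same clone. Over the 12 libraries the number listed rose with the autosomal list length with r = 0.997 (Pearson) and rho = 1 (Spearman), each with a permutation p of 1e-05, the smallest that 100000 permutations can give, and an adjusted p of 2e-05. Without the 2 libraries with the longest lists, which lay farthest from the median length, r was 0.995. Within synHPRT1 r was 0.998 and within synHPRT1R 0.996 (n = 6 each, exact permutation p = 0.00139 for both). The listed regions are part of the list, so a link with its length is built in, and the values give its tightness.

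Genotypes did not differ in this number beyond the spread between libraries. A synHPRT1 library listed 9750 ± 4021 and a synHPRT1R library 8420 ± 2571 (mean and SD over 6 libraries), and the difference of 1331 had a two-sided exact permutation p of 0.506. Between clones of synHPRT1 the means were 10131 ± 3668 and 9370 ± 5150, and between those of synHPRT1R 9611 ± 3485 and 7228 ± 347 (SD, n = 3 each, exact permutation p = 1 and 0.4, where 0.1 is the smallest possible).

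The lists were not nested, a longer one holding all that a shorter one held. The longest list held 63.3% of the regions of 4 libraries and 92.2% of those of 8, and the shortest list held 12.7% and 36.7%. If every list were the strongest part of a single ranking, each region would be listed in exactly the longest lists, and 410 of 18861 (2.17%) were. At the other extreme, 311 (1.65%) were absent from all 3 of the longest lists.

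When every list was limited to its 37111 strongest peaks, the length of the shortest list, libraries listed between 4407 (23.4%) and 5452 (28.9%) of the intermediate regions. In these lists 7376 (39.1%) of the regions were still listed by 4 to 8 libraries, 10264 (54.4%) by 1 to 3 and 1221 (6.47%) by none. No region could rise, since peaks were only taken away. In return, 5642 regions of more libraries came down into the range of 4 to 8, and they were 43.3% of the 13018 regions then in it. Only 251 of the regions of all 12 libraries (1.12%) were among these. Under a stricter limit, which kept only peaks with a −log10 q-value of 5 or more, 4970 (26.4%) stayed in the range, and 4631 (24.6%) stayed in it under both limits.

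**Figure D3:**
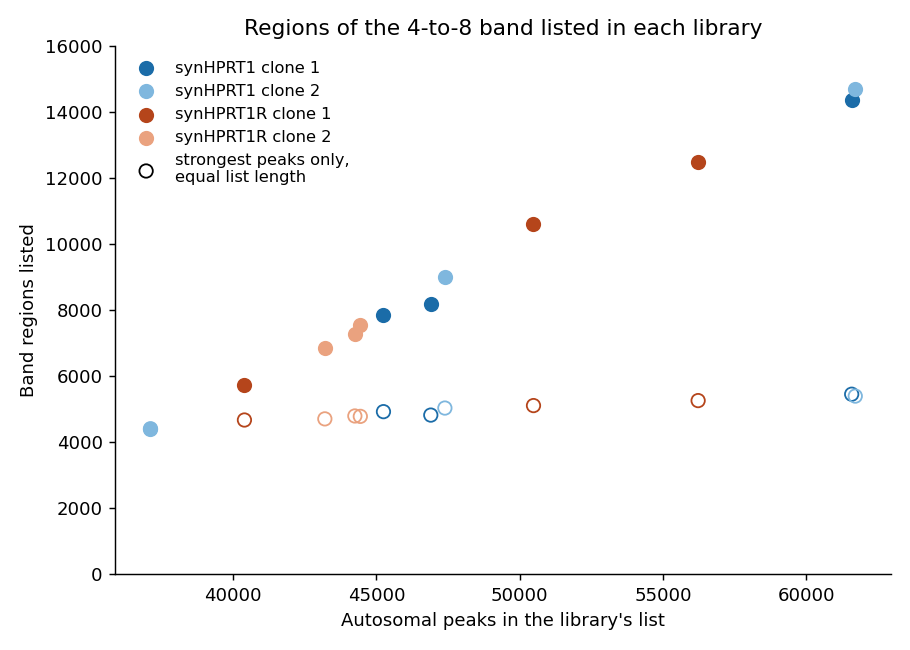
Intermediate regions listed by each library (vertical axis, number of regions) against the number of autosomal peaks in its list (horizontal axis), coloured by clone. Filled points show the deposited lists, which run from 4407 to 14689 along a near-straight line, and open points the lists limited to 37111 peaks each, which run from 4407 to 5452.

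Several genes of early development had no steadier peak at their ends than an intermediate region. Over all 20661 autosomal protein-coding genes, 2123 (10.3%) had an intermediate region within 1 kb of an end, and in 1094 of them no more than 8 libraries listed any peak there. Of 10 mesoderm genes 5 had one (T, Msgn1, Hand1, Foxf1 and Kdr), of 10 trophoblast genes 3 (Tfap2c, Hand1 and Krt18), and of 9 germline genes 3 (Sycp3, Sycp1 and Asz1). Of 25 genes of signalling pathways 8 had one, of 15 Hox genes 2 (Hoxb4 and Hoxb9), of 19 chromatin regulators 1 (Eed) and of 9 genes of the 2-cell state 0. Among these, no more than 8 libraries listed any peak at the ends of T, Msgn1, Hand1, Tfap2c, Krt18, Sycp1, Asz1, Lefty1, Bmp4, Hoxb4 and Hoxb9. Foxf1, Kdr and Eed also had other peaks there, which brought their counts to 11 or 12 libraries. Sycp3 had intermediate regions of 7 and 8 libraries, and these alone together covered the 11 libraries of its count. These lists are short, and no share was tested against the 10.3% of all genes.

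Of 19 naive and general pluripotency genes 8 had one, and for 7 of these, Nanog, Klf4, Klf5, Zfp42, Dppa2, Dppa3 and Tdgf1, other peaks at the gene ends brought the count to at least 10 libraries. Prdm14, which encodes a regulator of naive pluripotency, was the exception and had 8. Its region, chr1:13126856-13127646, was listed in synHPRT1 clone 1 in replicates 2 and 3 with folds of 3.81 and 5.15, in all 3 replicates of clone 2 with 3.29, 3.08 and 2.94, in synHPRT1R clone 1 in replicates 1 and 2 with 3.41 and 3.62, and in clone 2 in replicate 1 with 3.49. Every clone had at least 1 library with it, and only 1 clone had all 3. Near Nanog, the homeobox gene of pluripotency, the region chr6:122715470-122716373 was listed in 7 libraries with a median fold of 3.49.

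Sox1 had its only region at chr8:12394995-12396013, over the promoter printed above. It was listed in synHPRT1 clone 1 replicate 2 (fold 4.60), clone 2 replicates 1 and 3 (5.43 and 4.4), synHPRT1R clone 1 replicate 2 (3.51) and clone 2 replicates 2 and 3 (2.84 and 3.73). No clone listed it in all 3 replicates, and none lacked it. T had a pair of intermediate regions, chr17:8433576-8434283 with 7 libraries and folds of 3.00 to 4.21, and chr17:8434482-8434956 with 5 libraries and folds of 3.34 to 4.29. The second was in 0 of 3 libraries of synHPRT1 clone 2.

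Hand1, a transcription factor gene of heart and trophoblast, had a region at chr11:57831346-57832100. It was listed in synHPRT1 clone 1 replicates 2 and 3 (folds 4.64 and 3.10), clone 2 replicate 1 (2.85) and all 3 replicates of synHPRT1R clone 1 (4.38, 4.02 and 3.5), and in 0 of 3 of clone 2. Krt18, an epithelial keratin gene, had a region at chr15:102027913-102028622 in 5 libraries. It was in synHPRT1 clone 1 replicate 3 (fold 5.77), clone 2 replicate 1 (4.45) and all 3 replicates of synHPRT1R clone 1 (3.53, 4.13 and 3.69). Both regions thus had 3 of 3 libraries in synHPRT1R clone 1 and 0 of 3 in clone 2. Of all intermediate regions, 23.5% were in 0 of 3 libraries of synHPRT1R clone 2, against 8.17% to 10.1% for the other clones.

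Bmp4, a ligand of the BMP pathway, was divided over the clones of synHPRT1. Its region at chr14:46390151-46390916 was listed in 0 of 3 libraries of synHPRT1 clone 1 and in all 3 of clone 2 with folds of 2.88, 3.59 and 4.45. In synHPRT1R it was in clone 1 replicate 2 (3.55) and in all 3 of clone 2 (2.96, 3.62 and 5.00). Lefty1, an inhibitor of Nodal signalling, had a region at chr1:180933452-180934097 in all 3 libraries of synHPRT1 clone 1 (4.63, 4.33 and 5.77), in 1 of clone 2 (3.18), in 2 of synHPRT1R clone 1 (5.70 and 3.61) and in 1 of clone 2 (5.95). Fgf8, a growth factor gene, had 6 libraries at chr19:45736942-45737406, among them all 3 of synHPRT1R clone 1. These are single regions with unadjusted Fisher's exact p-values above 0.05 between genotypes, and differences between clones of a genotype, 3 libraries against 3, cannot pass an exact test.

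Other lists gave similar weak peaks. Hoxb4 had chr11:96318181-96318924 in 7 libraries with folds of 2.97 to 5.54, and Hoxb9 had chr11:96271528-96272552 in 7 with 3.39 to 4.96. The synaptonemal complex gene Sycp1 had chr3:102935500-102936400 in exactly 2 libraries of every clone, with folds of 2.99 to 4.75. Col1a2, a collagen gene of fibroblasts, had chr6:4505259-4505848 in 6 libraries and, beside it, chr6:4505863-4506513 in 4 synHPRT1 and 0 synHPRT1R libraries (folds 5.29, 4.06 and 3.37 in clone 1 and 5.13 in clone 2 replicate 2).

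A small number of intermediate regions had strong peaks. The median −log10 q-value over the listing libraries was at least 10 in 333 (1.77%), at least 15 in 32 and at least 20 in 10. The highest lay inside Dop1b, at chr16:93789191-93789383, a region of 193 bp. Its folds were 35.1, 33.0 and 34.7 in synHPRT1 clone 1, 35.7 in clone 2 replicate 1, 34.9 and 34.7 in synHPRT1R clone 1 replicates 1 and 2, and 33.2 and 34.5 in clone 2 replicates 1 and 2. Its −log10 q-values ran from 629 to 1283, and no peak was listed there in the other 4 libraries. A region of 190 bp at chr13:120321449-120321638, 3188 bp from Tcstv3, a gene of the 2-cell embryo, had folds of 37.3 to 38.5 in 6 libraries and no peak in the other 6. Among the 10 strongest regions, every fold of these 2 was above 30 and those of the other 8 were at most 15.5.

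The other 8 of the 10 were broader or weaker. A region of 469 bp inside Slc25a13, the gene of a mitochondrial aspartate-glutamate carrier, at chr6:6192189-6192657, had folds of 13.04 in synHPRT1 clone 1 replicate 3, 10.95 and 12.98 in clone 2 replicates 1 and 2 and 11.8 in synHPRT1R clone 1 replicate 1. A region inside Fer, a tyrosine kinase gene, at chr17:64047224-64047668, was in all 3 libraries of synHPRT1R clone 1 (10.6, 12.6 and 7.05), in 1 library of each synHPRT1 clone (11.6 and 13.8) and in 0 of 3 of synHPRT1R clone 2. One inside Atf2, a gene of a bZIP transcription factor, at chr2:73867932-73868612, had folds of 15.5, 7.04 and 12.03 in synHPRT1 clone 1, 10.6 in clone 2 replicate 1, and 3.8 and 10.3 in replicate 1 of the synHPRT1R clones. Regions inside Cog5, of the Golgi tethering complex, and inside Srl, which encodes sarcalumenin, a calcium-binding protein of muscle, had folds of 7.31 to 12.03 in 7 libraries and 7.70 to 10.3 in 5. Depdc1b had one 773 bp from a gene end in 8 libraries (5.49 to 10.2). The last 2 lay 190211 bp from Gm41099 on chromosome 14 (6 libraries, 10.8 to 15.5) and 249302 bp from Gm7361 on chromosome 5 (8 libraries, 11.02 to 14.5). All 10 stayed in the range of 4 to 8 both in lists of equal length and under the stricter limit. The treatment of reads that map to several places is not stated in the labels, and its part in these signals was not tested.

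Every intermediate region was listed in at least 2 clones, which the rule fixed, since a clone has only 3 libraries. Regions of 7 or 8 libraries must reach at least 3 clones. At least 1 library of every clone listed 10416 intermediate regions (55.2%), 7341 (38.9%) were listed in 3 clones and 1104 (5.85%) in 2. Whether these shares differ from those of random placement was not tested. A clone was complete, with all 3 of its libraries listing the region, in 0 of 4 clones for 12121 regions (64.3%), in 1 for 6052 (32.1%) and in 2 for 688 (3.65%).

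Of the 72660 regions listed in 1 to 11 libraries, 0 (0%) had a Benjamini-Hochberg adjusted p under 0.05 between genotypes by Fisher's exact test. Without adjustment 156 had a p under 0.05 (0.215%), and all 156 were intermediate, because only a region of 5 to 7 libraries, of which there were 10692, can reach it with 6 libraries per genotype. They were 0.827% of the intermediate regions. More synHPRT1 libraries listed 116 of them (0.16% of the 72660) and more synHPRT1R libraries 40 (0.0551%). In lists of equal length 183 had such a p, and 87 of these had more synHPRT1R libraries. By the arithmetic of the adjustment, at least 3146 fully separated regions would be needed for 1 to pass, so the 0 does not show that genotypes were alike.

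A clean division of clones was seen in 20 intermediate regions (0.0275% of the 72660). They were listed in all 6 libraries of 2 clones and in none of the other 6. The 2 clones were those of synHPRT1 in 7, those of synHPRT1R in 6, and 1 of each genotype in the other 7. In lists of equal length, 4 of the 20 were still so divided. Only the 3463 regions of exactly 6 libraries can be so divided. Whether 20 of them differs from what random placement gives was not tested, so the regions below are examples only. Near Ampd2, an AMP deaminase gene, the region chr3:108070231-108070819 had folds of 6.21, 4.60 and 4.33 in clone 1 and 4.87, 5.13 and 6.94 in clone 2 of synHPRT1. The one inside Lingo2, at chr4:35839833-35840066, had 5.16, 4.90 and 6.71 in clone 1 and 7.39, 5.95 and 5.65 in clone 2 of synHPRT1R. That near Nr2f1, an orphan nuclear receptor gene, at chr13:78582616-78583069, had 5.98, 4.64 and 5.70 in clone 1 and 4.49, 6.61 and 5.32 in clone 2 of synHPRT1R.

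In other regions the division joined 1 clone of each genotype. The region near Zfp738, a zinc finger gene, at chr13:67686324-67687013, had 5.07, 4.12 and 4.93 in synHPRT1 clone 1 and 4.34, 3.41 and 3.63 in synHPRT1R clone 1. One inside Ankrd45, at chr1:161145681-161146180, had 3.71, 3.52 and 4.12 in synHPRT1 clone 1 and 3.59, 3.94 and 3.44 in synHPRT1R clone 2. The region inside Fbxo3, a gene of a ubiquitin ligase subunit, at chr2:104032112-104032642, had 2.75, 4.45 and 5.11 in synHPRT1 clone 2 and 3.82, 3.87 and 2.95 in synHPRT1R clone 1. Clone 2 of both genotypes was the pair in 0 regions.

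Within a genotype, regions listed in all 3 libraries of 1 clone and none of the other were counted among those listed in that genotype in 1 to 5 libraries. For synHPRT1 clone 1 they were 237 of 18568 intermediate regions (1.28%), against 299 of 56311 regions in all (0.531%). For clone 2 they were 147 (0.792%) against 178 (0.316%). In synHPRT1R they were 511 of 18367 (2.78%) against 580 of 49163 (1.18%) for clone 1 and 125 (0.681%) against 146 (0.297%) for clone 2. Regions of 1 or 2 libraries cannot be so divided, so the higher shares among intermediate regions are not a result about them.

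With list length allowed for, libraries of the same genotype agreed more in which intermediate regions they listed than libraries of different genotypes. The phi coefficient, a correlation of the listing of 2 libraries over the 18861 regions that allows for how many each lists, was 0.000431 ± 0.0108 for the 12 pairs within clones (mean and SD over pairs). It was −0.00524 ± 0.0135 for the 18 pairs that joined the clones of a genotype and −0.0343 ± 0.0141 for the 36 pairs across genotypes. Choosing regions of 4 to 8 libraries lowers the mean phi over pairs, so that the differences between kinds of pair carry the information. Within clones minus between clones the difference was 0.0251 (one-sided exact permutation of the clone labels, p = 0.00013, where 6.49e-05 is the smallest possible). Within genotypes minus between genotypes it was 0.0313 (exact permutation, p = 0.00216, the smallest that 462 arrangements allow). This genotype test was added after the data were seen. For sharing by clone, the plan named the Jaccard index given below and not phi.

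The part of the clone inside a genotype was smaller. Within clones minus between clones of the same genotype the difference was 0.00567 (exact permutation within genotypes, p = 0.02, where 0.01 is the smallest possible, also added after the data were seen). In lists of equal length it was 0.00263 (exact permutation, p = 0.39), while the genotype difference in those lists was 0.0412 (exact permutation, p = 0.00216). The difference inside a genotype also lost the threshold in 9 of the 12 fits without 1 library (exact permutation p from 0.08 to 0.30). All phi values were small, since a phi of 1 would be the same regions in both libraries. The labels do not say whether libraries of a genotype were prepared or sequenced together, so genotype, such a batch and a reference that differed with the construct cannot be told apart.

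The plain share of regions in common did not separate the same pairs. The Jaccard index, regions listed in both libraries over those listed in either, was 29.2 ± 8.77% within clones, 29.8 ± 11.2% across the clones of a genotype and 28.6 ± 10.4% across genotypes (mean and SD over pairs). The difference within minus between clones was 0.00181 as a fraction (exact permutation, p = 0.380). Within genotypes minus between genotypes it was 0.00961 (exact permutation, p = 0.128). The index ranged from 13.8% to 62.9% over all pairs, and it moves with list length. In lists of equal length the difference by clone was 0.0127 (exact permutation, p = 0.00688).

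**Figure D4:**
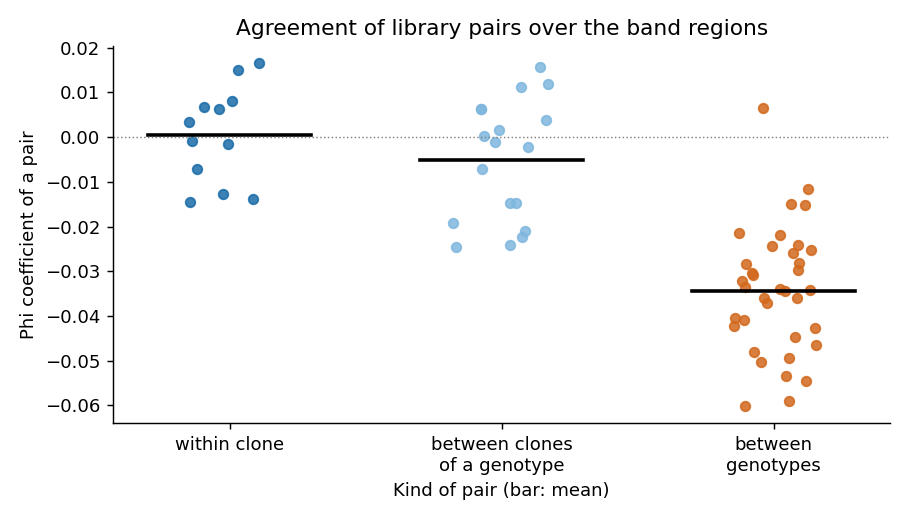
Phi coefficient of each of the 66 pairs of libraries over the intermediate regions (vertical axis, no unit), grouped by kind of pair, with a bar at the mean. Pairs between genotypes have a mean of −0.0343, below the means of −0.00524 between clones of a genotype and 0.000431 within clones, and the points overlap.

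Where the listed intermediate regions lay also differed between genotypes by a small amount. For synHPRT1, 16.5 ± 0.443% of those listed by a library lay beyond 50 kb from a gene (15.9% to 17.1%), and for synHPRT1R 17.3 ± 0.167% (17.1% to 17.5%; mean and SD over 6 libraries, exact permutation p = 0.00216, adjusted p = 0.00866 over 4 places). At 1 to 50 kb the shares were 29.6 ± 0.380% and 29.0 ± 0.280% (exact permutation p = 0.00433, adjusted p = 0.00866). At gene ends they were 11.3 ± 0.273% and 11.2 ± 0.205% and inside genes 42.6 ± 0.443% and 42.5 ± 0.415%, with exact permutation p-values of 0.554 and 0.751. Beyond 50 kb, clones 1 and 2 of synHPRT1 had mean shares of 16.6% and 16.4%, and those of synHPRT1R 17.2% and 17.5%. Under the stricter q limit neither difference passed (exact permutation p = 0.357 beyond 50 kb and 0.184 at 1 to 50 kb), and for regions of 5 to 7 libraries the one at 1 to 50 kb did not (exact permutation p = 0.110). These tests were chosen after the data were seen.

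For each library the share listed on a chromosome was set against its share over the other autosomes, and 0 of 19 chromosomes passed an exact permutation test of the spread between clones after Benjamini-Hochberg adjustment, with 6 at an unadjusted p under 0.05. Chromosome 3 had the lowest adjusted p, 0.0531, with 2.79 ± 0.287 percentage points in synHPRT1 clone 1 and −1.16 ± 1.48 in clone 2, and −0.245 ± 0.800 and 0.700 ± 0.539 in the synHPRT1R clones (SD, n = 3 each, exact permutation). On chromosome 19 synHPRT1R clone 2 stood at −3.35 ± 0.404, below all 9 other libraries (exact permutation, adjusted p = 0.0679). On chromosome 8 synHPRT1 clone 2 stood at −3.38 ± 0.335 and synHPRT1R clone 2 at 2.82 ± 2.55 (exact permutation, adjusted p = 0.0682). On chromosome 7 synHPRT1 clone 1 stood at 3.35 ± 1.44 and synHPRT1R clone 1 at −3.07 ± 2.28 (exact permutation, adjusted p = 0.0682). Other settings gave calls, with adjusted p-values from the same exact permutation test. Chromosome 7 passed where a peak had to cover at least 50% of the region (0.00123), under the stricter q limit (0.0345), for regions of 5 to 7 libraries (0.0395), and without synHPRT1 clone 1 replicate 1 (0.0253) or clone 2 replicate 2 (0.0308). Chromosome 3 passed without synHPRT1 clone 1 replicate 1 (0.0074), clone 1 replicate 2 (0.0148) or clone 2 replicate 2 (0.0308). Chromosome 8 passed without synHPRT1 clone 1 replicate 1 (0.0426) and chromosome 19 without clone 2 replicate 2 (0.0355).

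**Figure D5:**
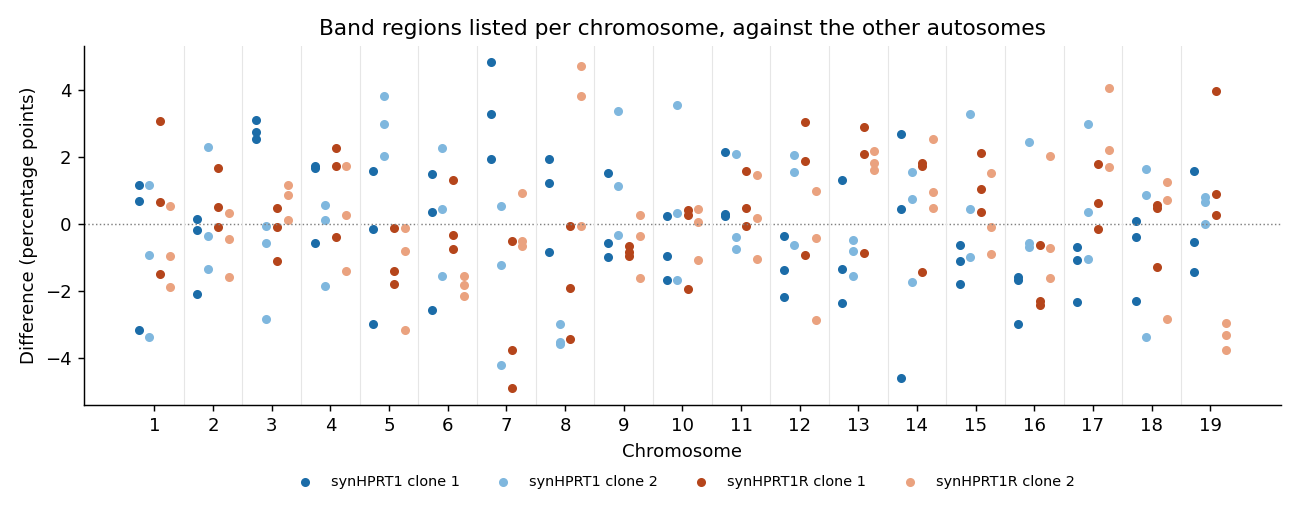
Share of the intermediate regions of a chromosome that a library lists, minus its share over the other autosomes (vertical axis, percentage points), for chromosomes 1 to 19 and each of the 12 libraries, coloured by clone. The 3 libraries of synHPRT1 clone 1 are highest on chromosome 3, at 2.52 to 3.09, and those of synHPRT1R clone 2 lowest on chromosome 19, at −3.77 to −2.97.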

How the data were processed

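Peak lists of 12 ATAC-seq libraries were used. Tools credited in the submitters' processing notes are MACS2 2.1.0, Bowtie2 2.2.9, deepTools 3.5.0, SAMtools 1.9 and bcl2fastq 2.20, with GRCm38 and mm10 as builds. Settings of these tools, the Tn5 shift, duplicate removal and any blacklist were not used as facts, being not given in the sources used here. A library has its own narrowPeak list with no header, so peaks were called per library. The authors deposited an integer score, the fold (a ratio to background), the −log10 p-value and the −log10 q-value of each summit, and the summit's offset from the peak start, and the lowest −log10 q-value is 1.3. The fold and q-value are the authors' own and were used only within their list. The lists hold no counts, so the read depth is unknown.

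Peaks on chromosomes 1 to 19 were merged, and Python 3.11.15 with numpy 2.4.6, pandas 2.3.3 and scipy 1.17.1 was used for all steps. Where a library had several peaks in a region, the strongest was taken for folds given by library, while medians over the peaks of a class used all peaks. Tests were two-sided exact permutations over libraries and Fisher's exact test per region with Benjamini-Hochberg adjustment, tested on simulated data: of 200 regions planted as fully separated among 72660, 200 had an unadjusted p under 0.05 and 0 an adjusted one, and with 3346 planted 3346 were called. Tests of kinds of pairs were one-sided for higher values within. Places came from a RefSeq gene table of GRCm38.p6, and promoter windows matched 16436 of its 20661 autosomal protein-coding genes (79.6%), none on chromosome 18. The rule and gene lists were chosen with earlier results of these data known. Named were the 10 regions of highest median −log10 q-value, which are also the 10 highest of those that stay in the range under both limits, and up to 3 divided regions per pair of clones. Regions at list genes were named after their values were seen, and the results of some gene lists are not reported here. Libraries with the same replicate number did not deviate together (mean r = −0.00227 over 18 pairs, −0.0140 to 0.00749), so the numbers were not taken as pairs. Alternatives were lists of equal length, a −log10 q-value of 5 or more, a peak covering at least 50% of a region, 5 to 7 libraries, gene ends within 500 bp or 2 kb, and leaving out each library.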

Additional observations from a re-analysis of the deposited data

Results flagged for a closer look

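Chromosomes X and Y were outside the choice of regions. With the same merging, 474 of 2548 regions of chromosome X (18.6%) and 39 of 209 regions of chromosome Y (18.7%) were listed in 4 to 8 of the 12 libraries, close to the 18.9% of the lowest autosome. They are given because they hold signal in data that the comparisons did not use. In 16 groups of libraries tested for a library far from the rest, 0 were found.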

How the results depend on the processing

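The lists give no depth, which limits what an unlisted region means, and 2 clones per genotype limit every genotype difference. The phi differences by clone and by genotype kept direction and threshold in every alternative run (without 1 library: 0.0194 to 0.0275 by clone and 0.0268 to 0.0335 by genotype). Phi within clones minus between clones of a genotype did not pass in lists of equal length (0.00263), at 50% cover (0.000135) or for 5 to 7 libraries (0.00577), and without 1 library it was 0.00218 to 0.00719 and did not pass in 9 of 12 cases. The Jaccard difference by clone was 0.0127 in lists of equal length and −0.00175 at 50% cover. It was −0.0127 to 0.0207 without 1 library, below 0 without synHPRT1 clone 1 replicate 1 (−0.0127) or 2 (−0.0121), clone 2 replicate 3 (−0.00426) or synHPRT1R clone 1 replicate 2 (−0.000733) or 3 (−0.00844). The cause was not tested.

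The difference in regions listed between synHPRT1 clones was −1223 without clone 1 replicate 3 and −1816 without clone 2 replicate 3 (range −1816 to 3374). The genotype differences in place were −0.366 points (beyond 50 kb) and 0.298 (1 to 50 kb) at −log10 q of 5 or more, and 0.587 at 1 to 50 kb for 5 to 7 libraries, and none of these 3 passed. Regions in the set numbered 10692 for 5 to 7 libraries, 13004 in lists of equal length, 13281 at −log10 q of 5 or more, and 18842 to 20020 without 1 library, with regions merged anew. The share at gene ends was 14.3% in lists of equal length, 16.1% at −log10 q of 5 or more, 17.8% at 50% cover, 8.02% and 15.7% at 500 bp and 2 kb, and 11.1% to 11.9% without 1 library. In the same order, the share inside genes was 40.4%, 39.9%, 39.0%, 44.7%, 40.1% and 42.1% to 42.8%. At 1 to 50 kb it was 28.3%, 27.4%, 26.8%, 30.2%, 27.1% and 28.8% to 29.1%. Beyond 50 kb it was 16.5% at 50% cover and 16.8% to 17.2% without 1 library.

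Chromosomes past the threshold numbered 2 at −log10 q of 5 or more, 1 at 50% cover, 1 for 5 to 7 libraries, and 0 to 4 without 1 library (4 without synHPRT1 clone 1 replicate 1 or clone 2 replicate 2). Leaving out a library makes separation easier, so regions with an unadjusted Fisher's exact p under 0.05 numbered 264 to 489 and divided regions 32 to 75. With a replicate block, libraries being exchanged only within a replicate number, exact permutation p-values were 0.565 for the genotype difference in regions listed, 0.444 for Jaccard, 0.00347 for phi by clone and 0.00926 for phi by genotype, and 156 regions had an unadjusted p under 0.05 as before. Deviations correlated best with a library of the same number in 11 of 36 cases, and the block changed none of these calls. It was not run for the differences in place or for phi within a genotype.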
